A study of Mus musculus with 9 samples.

Results

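The genes described here are 10 of the 24330 genes with a usable name in the deposited table of all genes, chosen by name because they decline between gastrulation and embryonic day 9.5 (E9.5): *Pou5f1*, *Nanog*, *Utf1*, *Zfp42*, *Tdgf1*, *Tdh*, *Dnmt3b*, *Sall4*, *Lin28a* and *Lin28b*. All 10 had a row, and they were chosen with earlier results of these data known. Their mRNA was measured by sequencing of poly-A RNA from whole E9.5 mouse embryos in 3 groups of 3 samples, each sample a pool of 3 embryos. KO-NTD embryos lacked the lipoprotein receptor SR-B1 (gene *Scarb1*) and had a neural tube defect (the cranial neural tube had not closed), KO-N embryos lacked SR-B1 and had a normal morphology, and WT embryos carried the intact gene. All came from SR-B1 heterozygous intercrosses on a mixed C57Bl/6J x 129S2 background, so both KO groups carry the same null allele and were separated by their phenotype at collection, after yolk sacs had been dissected away.

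In the early embryo, *Pou5f1* (the transcription factor OCT4), *Nanog* and *Utf1* mark the pluripotent epiblast, and their expression is lost from somatic cells as the germ layers form, remaining later in primordial germ cells. *Lin28a* and *Lin28b* encode RNA-binding proteins that block maturation of the let-7 microRNAs, and their decline lets let-7 rise and repress growth-related mRNAs, a switch that times developmental transitions in worms and mammals. The remaining genes encode a coreceptor of Nodal signalling (*Tdgf1*), threonine dehydrogenase (*Tdh*), a de novo DNA methyltransferase (*Dnmt3b*) and the zinc finger factors *Sall4* and *Zfp42* (REX1).

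Values are FPKM, a fragment count scaled by transcript length and by all fragments mapped, with 1 value per group that the authors combined from the 3 samples of the group, and with lower and upper confidence bounds in the table of all genes. Single pools cannot be seen, so no test between pools was possible and no p-value is given. The files hold no read counts, so the number of fragments behind each value is unknown, although the study lists the reads sequenced for each sample. Differences are log2 folds of FPKM + 0.1, KO-NTD over KO-N, with a 95% interval built from the authors' bounds. The intervals carry the authors' error model and are not adjusted for the number of genes. WT values come from the authors' comparison tables, which hold only genes that they marked as significant, so only *Tdh* and *Tdgf1* have one. In all, 3 of the 10 genes have a row in those tables, the third being *Lin28a*, which is in the table of the KO groups. The table of all genes also has a column headed Control, and no source used here says which samples it combines. *Scarb1* was at 3.13 FPKM in KO-NTD, against 17.1 FPKM in WT in one table, and at 3.35 FPKM in KO-N, against 17.1 FPKM in WT in another. In the Control column it was at 12.4 FPKM, between the KO and WT values, so that column is not taken as the WT group. The embryos are labelled female, yet 4 Y-linked genes were measured at 1.61 to 5.12 FPKM in KO-NTD embryos, 1.58 to 5.69 FPKM in KO-N embryos and 3.37 to 9.98 FPKM in the Control column.

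Because LIN28A and LIN28B act on let-7 precursors, the sequences through which they do so are given first, as RefSeq records them on GRCm38.p6. Mature let-7 microRNAs are grouped by their seed, the bases at positions 2 to 8 that pair with target mRNAs, shown in capitals for 3 of them. The seed GAGGUAG is held by 9 of the 10 listed, and let-7j has GAGGUAU.
mmu-let-7a-5p: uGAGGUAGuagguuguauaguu
mmu-let-7g-5p: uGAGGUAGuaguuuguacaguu
mmu-let-7j: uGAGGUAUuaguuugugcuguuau

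LIN28 proteins bind a GGAG element in the loop of the precursor, between the arms that become the mature strands. GGAG stands between the arms in 8 of the 10 let-7 hairpins with both arms listed, and is in capitals in the let-7g hairpin (chr9:106178840-106178927, plus strand), where it begins at base 56. The let-7b hairpin (chr15:85707319-85707403, plus strand) has none in that stretch.
let-7g hairpin: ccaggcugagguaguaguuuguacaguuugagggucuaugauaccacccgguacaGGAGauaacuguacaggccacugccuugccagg
let-7b hairpin: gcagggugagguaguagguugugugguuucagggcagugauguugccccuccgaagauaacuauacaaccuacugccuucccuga
Mature microRNAs were not measured in these poly-A libraries. What was measured is the mRNA of the LIN28 genes and of genes known as let-7 targets.

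The genes fell into 2 levels of expression at E9.5. *Lin28a*, *Lin28b*, *Sall4* and *Dnmt3b* were at 18.5 FPKM or more in every column of the table, while *Tdh*, *Tdgf1*, *Pou5f1*, *Utf1*, *Nanog* and *Zfp42* were at 2.89 FPKM or less. In both KO groups the order ran from *Lin28a* to *Lin28b*, *Sall4* and *Dnmt3b*, and the bounds of *Lin28b* and *Sall4* overlapped in each. *Pou5f1*, *Utf1* and *Nanog* followed each other with overlapping bounds in every column, and *Zfp42* was lowest, with bounds below those of *Nanog*. The order of *Tdh* and *Tdgf1* differed between the groups: *Tdh* was at 2.89 and *Tdgf1* at 1.61 FPKM in KO-NTD embryos, against 0.674 and 0.961 FPKM in KO-N embryos, and the bounds of the 2 genes overlapped in each group.

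**Figure D1:**
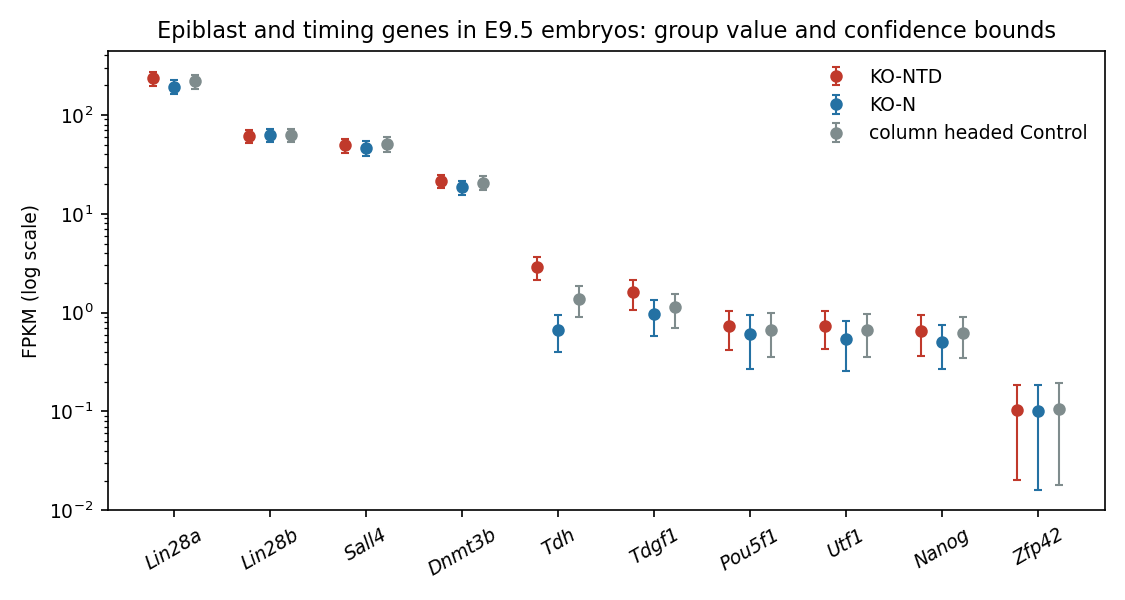
FPKM of the 10 genes on a log axis in KO-NTD embryos (red), KO-N embryos (blue) and the column headed Control (grey), 1 group value each, with the authors' confidence bounds as bars. *Tdh*, at 2.89 FPKM in KO-NTD, against 0.674 FPKM in KO-N, is the only gene of the 10 whose KO-NTD and KO-N bars do not overlap.

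Between the KO groups, *Tdh* and *Tdgf1* were higher in KO-NTD embryos by more than 1.5-fold, and no gene of the 10 was lower by that much. The filter kept 13569 genes whose mean over the KO groups reached 0.5 FPKM, of which 3.71% were past 1.5-fold, 1.9% higher and 1.81% lower. *Zfp42* lies under that mean, so 9 of the 10 genes were counted. The bounds of the KO groups were apart for 1 of them, *Tdh*, against 2.31% of all genes in either direction and 1.17% as higher, and the 95% interval excluded 0 for 2, *Tdh* and *Tdgf1*, against 3.72% in either direction and 1.56% as higher. The median log2 fold was 0.29 over the 9 genes and 0.26 with *Zfp42* included, against -0.02 over all genes. A positive log2 fold was found in 8 of the 9, against 41.7% of all genes, and *Lin28b* was the gene below 0. Among genes of 0.5 to 2 FPKM, 4.24% were past 1.5-fold higher and 45.5% had a positive fold, and the 5 of the 10 genes in that range were all positive. Among genes of 10 FPKM or more, 1.19% were past 1.5-fold higher and 39.3% had a positive fold, which 3 of the 4 genes in that range also had.

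**Figure D2:**
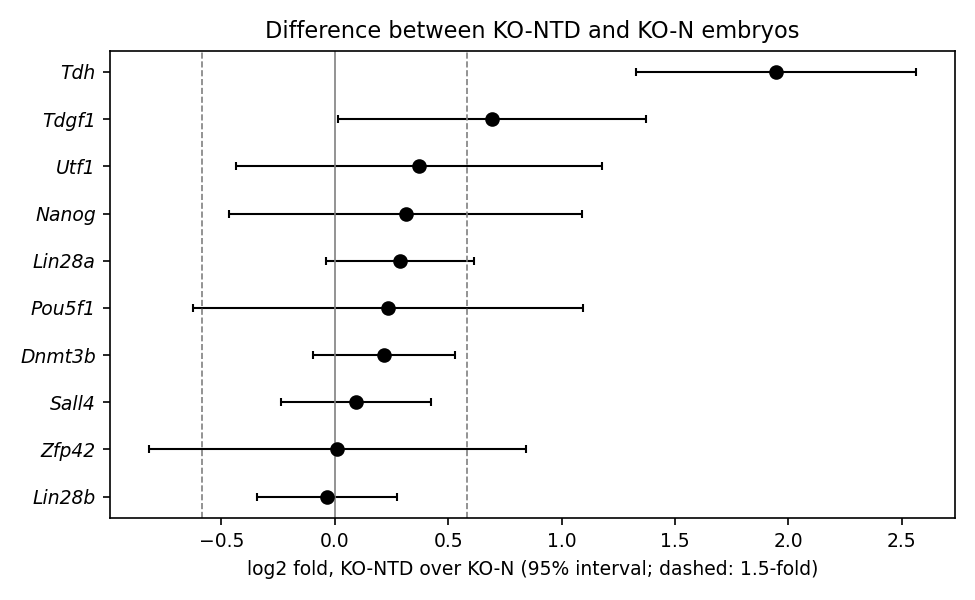
Log2 fold (KO-NTD over KO-N) for each gene (points) with its 95% interval (bars). Dashed lines mark 1.5-fold in either direction. *Tdh* at 1.95 and *Tdgf1* at 0.69 lie past the right line, and the other 8 genes lie between -0.03 and 0.37.

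*Pou5f1* (chromosome 17, 35506032 to 35510777 of mm10), which encodes OCT4, was at 0.736 FPKM in KO-NTD (bounds 0.423 to 1.05), against 0.610 FPKM in KO-N (0.269 to 0.951). *Nanog* (chromosome 6, 122707489 to 122714633), the homeobox gene of the epiblast and of germ cells, was at 0.655 FPKM in KO-NTD (0.365 to 0.945), against 0.508 FPKM in KO-N (0.267 to 0.749). *Utf1* (chromosome 7, 139943856 to 139945112), a chromatin-associated factor of pluripotent cells, was at 0.727 FPKM in KO-NTD (0.428 to 1.03), against 0.540 FPKM in KO-N (0.258 to 0.823). For each of these genes the bounds of the groups overlapped, with the KO-NTD value above the KO-N value.

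Their log2 folds were 0.24 for *Pou5f1* (95% interval -0.63 to 1.10), 0.31 for *Nanog* (-0.47 to 1.09) and 0.37 for *Utf1* (-0.44 to 1.18). Among the 2335 genes between 0.5 and 2 FPKM, log2 folds ran from -0.58 at the 5th to 0.53 at the 95th percentile and the median half-width of the interval was 0.62, or 1.54-fold, so a difference of the size seen in these 3 genes was not detectable at this level. *Zfp42* (chromosome 8, 43295067 to 43307009), the REX1 gene of naive pluripotent cells, was at 0.103 FPKM in KO-NTD (0.0201 to 0.186), against 0.101 FPKM in KO-N (0.0162 to 0.187), too low for a difference to be read. An antisense gene, *Gm19553*, overlaps *Pou5f1* in GENCODE M21, antisense genes likewise overlap *Dnmt3b*, *Lin28a* and *Sall4*, and pseudogenes are named for *Nanog*, *Tdgf1* and *Zfp42*. The sources used here do not say how reads shared with these were counted, so the values of these genes are uncertain in that respect.

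*Lin28a* (chromosome 4, 134003330 to 134018816) had the highest level of the 10 genes, at 235 FPKM in KO-NTD embryos (bounds 197 to 274), 193 FPKM in KO-N embryos (161 to 224) and 219 FPKM in the Control column. The KO bounds overlapped, and the log2 fold was 0.29 (95% interval -0.04 to 0.62), although the gene is among those that the authors' table of the KO groups holds as significant. A higher log2 fold was found in 5.46% of all genes past the filter. *Lin28b* (chromosome 10, 45376619 to 45470201), its paralog, was at 61.1 FPKM in KO-NTD (51.7 to 70.5), against 62.6 FPKM in KO-N (52.9 to 72.2), a log2 fold of -0.03 (-0.34 to 0.27). *Lin28a* was 3.85 times *Lin28b* in KO-NTD, against 3.08 times in KO-N. The log2 folds of the paralogs differed by 0.32 with an interval of -0.13 to 0.77 (errors of the genes taken as independent), so the difference did not exceed its error.

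Genes of let-7 processing and let-7 targets were all within 1.5-fold. Of 8 genes of let-7 processing and decay (the nucleases *Drosha*, *Dicer1* and *Dis3l2*, the uridylyl transferases *Zcchc11* and *Zcchc6*, and *Dgcr8*, *Xpo5* and *Ago2*), 0 were past 1.5-fold with an interval excluding 0, a rule that 0.914% of all genes met as higher and 0.929% as lower in KO-NTD. Their log2 folds ran from -0.11 to 0.09. Of 14 let-7 target genes, 0 met the rule either, and the values ran from -0.20 to 0.27 with a median of -0.08. The intervals of *Arid3a* (-2.23 to 2.23) and *Hmga1* (-1.20 to 0.95) were wide, so a difference past 1.5-fold could have been missed in these genes. *Hmga2*, the chromatin protein gene often used as a readout of let-7, was at 225 FPKM in KO-NTD, against 241 FPKM in KO-N, a log2 fold of -0.10 (-0.43 to 0.23).

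*Sall4* (chromosome 2, 168748332 to 168767201), a zinc finger factor of stem and progenitor cells, was at 49.1 FPKM in KO-NTD (41.2 to 56.9), against 46.0 FPKM in KO-N (38.1 to 53.9), a log2 fold of 0.09 (-0.24 to 0.43). The other family members measured, *Sall1*, *Sall2* and *Sall3*, had log2 folds between -0.10 and 0.17. *Dnmt3b* (chromosome 2, 153649449 to 153687730), which sets new DNA methylation in the epiblast, was at 21.5 FPKM in KO-NTD (18.1 to 24.8), against 18.5 FPKM in KO-N (15.5 to 21.4), a log2 fold of 0.22 (-0.10 to 0.53). *Dnmt3a*, the related enzyme that takes over in differentiating tissues, was at 17.95 FPKM in KO-NTD, against 21.0 FPKM in KO-N (-0.23, interval -0.54 to 0.09). *Dnmt3b* was at 1.2 times *Dnmt3a* in KO-NTD, against 0.879 times in KO-N, but the bounds of the 2 genes overlapped in each group. The difference of their log2 folds was 0.44 with an interval of -0.0009 to 0.88, which includes 0. Of 7 genes of DNA methylation and demethylation, among them *Dnmt1*, *Uhrf1* and the *Tet* genes, 0 met the rule and the 6 past the filter had a median of -0.06.

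**Figure D3:**
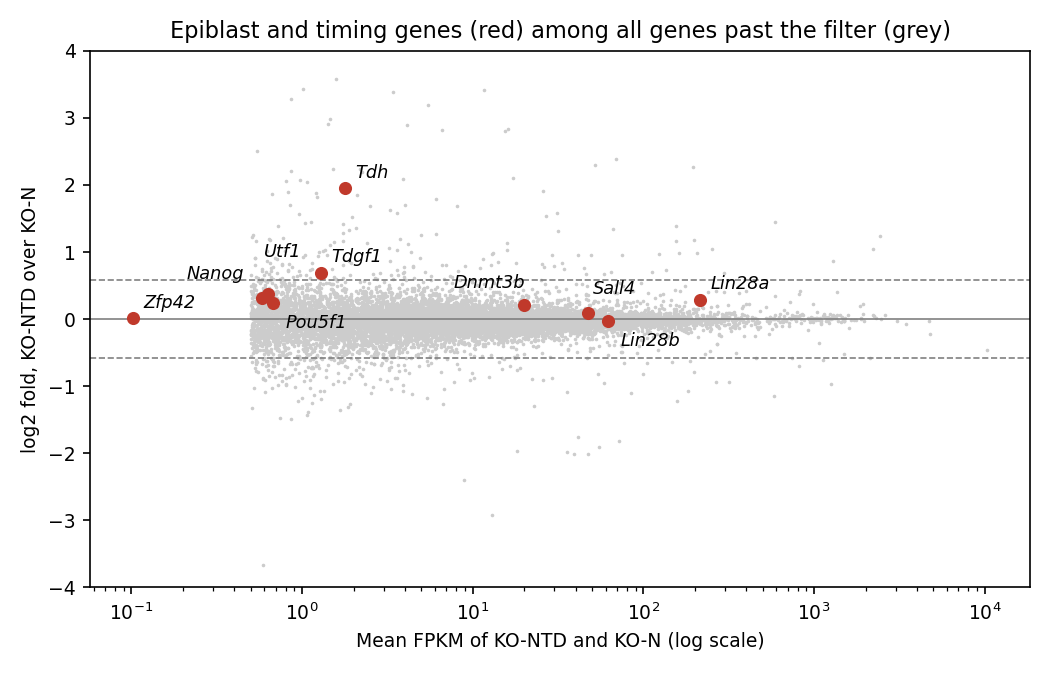
Log2 fold (KO-NTD over KO-N) against the mean FPKM of both KO groups (log axis) for genes whose mean reached 0.5 FPKM (grey) and the 10 epiblast and timing genes (red). 119 grey genes with larger folds lie outside the axis. The spread of folds narrows as the mean rises, *Tdh* at 1.95 lies above most genes of its level, and *Lin28a* at 0.29 lies above most genes of its own.

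*Tdgf1* (chromosome 9, 110939608 to 110946158), which encodes the EGF-CFC coreceptor Cripto that Nodal needs to signal, was at 1.61 FPKM in KO-NTD embryos (bounds 1.07 to 2.16), 0.961 FPKM in KO-N embryos (0.579 to 1.34) and 1.13 FPKM in the Control column. The bounds of the KO groups overlapped. The log2 fold was 0.69 with a 95% interval of 0.01 to 1.37, and a higher one was found in 1.6% of genes past the filter. With a pseudocount of 1 FPKM in place of 0.1 it was 0.41, below 1.5-fold. In the table with WT embryos it was at 1.62 FPKM in KO-NTD, against 0.976 FPKM in WT, a log2 fold of 0.67 with no bounds given, or 0.41 with a pseudocount of 1 FPKM, again below 1.5-fold.

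*Cfc1* (Cryptic), the other EGF-CFC gene, was at 0.769 FPKM in KO-NTD (0.389 to 1.15), against 0.264 FPKM in KO-N (0.0605 to 0.468), a log2 fold of 1.26 (0.25 to 2.26). *Foxh1*, the DNA-binding partner of SMADs in Nodal signalling, was at 5.63 FPKM in KO-NTD (4.40 to 6.86), against 3.25 FPKM in KO-N (2.39 to 4.12), a log2 fold of 0.77 with a standard error of 0.24, and its bounds were apart. These were the 2 genes past 1.5-fold with an interval excluding 0 among 14 Nodal pathway genes, against 0.914% of all genes as higher. The 10 of the 14 that passed the filter had a median of -0.02. *Cfc1* was below 0.5 FPKM in KO-N and passed the filter only through its KO-NTD value, so its count as higher depends on the filter. The ligand gene *Nodal* was at 0.123 FPKM in KO-NTD, against 0.164 FPKM in KO-N (interval -0.99 to 0.51). *Lefty1*, an inhibitor, was at 0.0563 FPKM in the first and 0.0763 FPKM in the second (-1.04 to 0.70). Both were under the filter, too low for a difference to be read.

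The *Tdgf1* promoter is shown because *Tdgf1* is the gene past 1.5-fold with a promoter in the RefSeq table. The 250 bases before its start (chr9:110946159-110946408, minus strand, GRCm38.p6) follow. Capitals mark matches, on either strand, to TGTNNATT, a loose form of the FOXH1 motif in which N is any base.
Tdgf1 promoter: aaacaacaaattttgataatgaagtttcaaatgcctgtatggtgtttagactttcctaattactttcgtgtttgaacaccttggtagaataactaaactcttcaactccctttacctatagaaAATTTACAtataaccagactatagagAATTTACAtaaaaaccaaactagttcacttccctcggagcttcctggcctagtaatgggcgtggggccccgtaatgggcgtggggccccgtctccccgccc

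The matches begin at positions -127 and -101 relative to the start, both on the strand opposite to the gene. TGTNNATT occurs in 10.9% of the 32851 promoter windows of that length. *Nanog* and *Lin28b* also hold it, and the octamer ATGCAAAT, found in 1.6% of windows, is held by *Zfp42* alone among the 8 genes with a window. *Tdh* and *Sall4* had no entry. A match is a string of letters, and binding was not measured.

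*Tdh* (chromosome 14, 63492347 to 63509092) showed the largest difference of the 10 genes. It encodes the mitochondrial enzyme that oxidizes threonine, a source of glycine and acetyl-CoA on which mouse embryonic stem cells depend. It was at 2.89 FPKM in KO-NTD embryos (bounds 2.12 to 3.65), 0.674 FPKM in KO-N embryos (0.401 to 0.948) and 1.39 FPKM in the Control column (0.908 to 1.87). The KO-NTD bounds lay above those of both other columns, and the KO-N bounds overlapped the Control bounds. The log2 fold was 1.95 (95% interval 1.33 to 2.56), and 0.671% of genes past the filter had a higher one. With a pseudocount of 1 FPKM it was 1.21. An antisense gene, *Gm17232*, overlaps *Tdh* in GENCODE M21. The libraries were strand-specific, but the sources used here do not say whether counting used the strand.

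Relative to WT embryos, *Tdh* stood on opposite sides in the KO groups. It was at 2.89 FPKM in KO-NTD, against 1.53 FPKM in WT, a log2 fold of 0.87, and at 0.677 FPKM in KO-N, against 1.54 FPKM in WT, a log2 fold of -1.08, or -0.60 with a pseudocount of 1 FPKM. These tables give no bounds. *Gcat*, whose enzyme carries out the next step after TDH, was at 15.8 FPKM in KO-NTD, against 16.7 FPKM in KO-N (-0.07, interval -0.42 to 0.27). The log2 folds of *Tdh* and *Gcat* differed by 2.02 (1.31 to 2.73). Of 8 genes of threonine and glycine catabolism, among them the glycine cleavage genes *Gldc*, *Amt* and *Gcsh*, 0 met the 1.5-fold rule and the 7 past the filter ran from -0.07 to 0.15.

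The genes most like *Tdh* were sought among the 43 genes, *Tdh* included, with values in all 3 comparison tables, by the Euclidean distance of their 3 log2 folds. *Afp*, the alpha-fetoprotein gene of yolk sac and liver, was nearest (distance 0.09), at 40.7 FPKM in KO-NTD embryos, at 10.8 FPKM in KO-N embryos and at 21.7 FPKM in WT. *Car7*, a carbonic anhydrase gene, followed (0.14) at 3.34 FPKM in KO-NTD embryos, at 0.856 FPKM in KO-N embryos and at 1.78 FPKM in WT. The third was the zinc transporter gene *Slc39a5* (0.19), at 1.63 FPKM in KO-NTD embryos, at 0.312 FPKM in KO-N embryos and at 0.756 FPKM in WT. Of the 43 genes, 30 were above WT in KO-NTD and below WT in KO-N embryos. All 43 are genes that the authors marked as significant in every comparison. The 30 and the nearest genes thus come from a list selected for differences between these groups, and no share over all genes can be given. The 3 comparisons share their samples, so these folds are not independent. The KO-N values and the WT values of these genes come from tables computed separately.

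**Figure D4:**
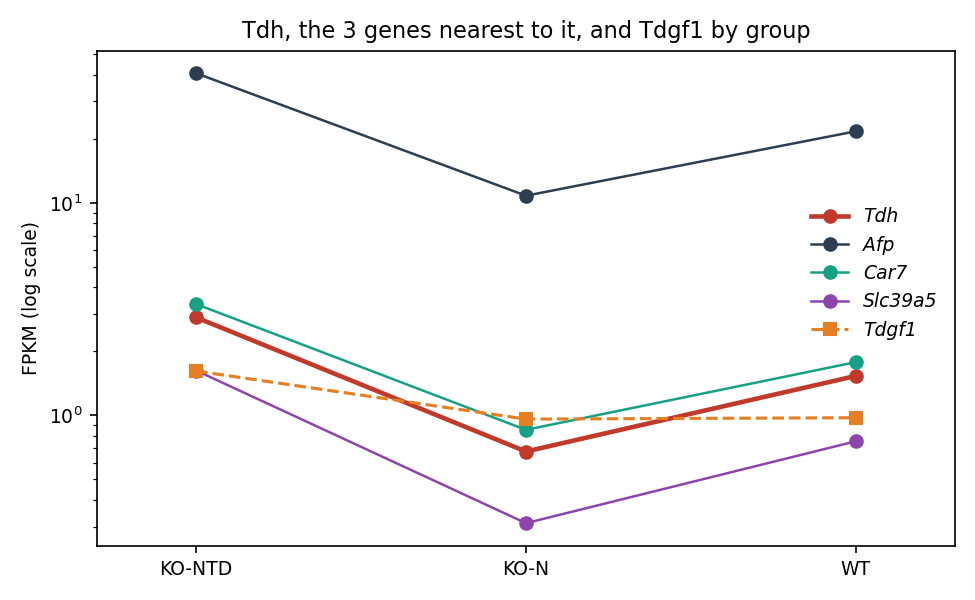
FPKM (log axis) of *Tdh*, the 3 genes nearest to it and *Tdgf1* in KO-NTD, KO-N and WT embryos, 1 group value each without error bars. Lines join values of 1 gene that come from tables computed separately. *Tdh* (2.89, 0.677 and 1.53 FPKM) and the 3 genes nearest to it lie lowest in KO-N, while *Tdgf1* is at 1.62 FPKM in KO-NTD and near 1 FPKM in the other groups.

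Genes listed as markers of the visceral endoderm, an extraembryonic layer that lines the yolk sac, moved in the same direction as *Tdh*. Yolk sacs had been dissected away from the embryos. KO-NTD embryos had more of all 12 listed than KO-N embryos, and none was at 0 in either KO group. Of the 12, 11 were past 1.5-fold with an interval excluding 0, against 0.914% of all genes as higher. The paper had reported *Apoa1*, *Apob*, *Apoe*, *Amn* and *Cubn* among others as raised in KO-NTD embryos of this study. The list was chosen with such results known, so this count is not independent of these data. Their summed level was 287 FPKM in KO-NTD, 102 FPKM in KO-N embryos and 156 FPKM in the Control column, and their median log2 fold was 2.45. *Apoa1* (3.42), *Cubn* (3.39), *Amn* (2.98) and *Apob* (2.89), which encode lipoproteins and parts of the endocytic receptor complex, had the largest folds. *Amn* and *Hnf4a* were below 0.5 FPKM in KO-N embryos and passed the filter only through their KO-NTD values. In the tables with WT embryos, which hold only genes that the authors marked as significant, all 12 were higher in KO-NTD. The 10 present for KO-N were lower in KO-N than in WT. The sum was 2.80 times as high in KO-NTD as in KO-N embryos, against 4.28 times for *Tdh* and 1.68 times for *Tdgf1*. That sum rests most on *Cldn6* and *Apoe*, which had the highest levels and the smallest log2 folds of the list (0.54 and 0.96). The median log2 fold of the 12, 2.45, was above that of *Tdh*, 1.95. In RNA from whole embryos, the number of cells of a type and the RNA per cell cannot be told apart. Which tissue held the mRNA of the 12 genes was not measured, and its part in the values of *Tdh* and *Tdgf1* was not tested.

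Genes of the tail bud and primitive streak, where axial progenitors remain at E9.5, were higher in KO-NTD embryos in part. Of 12, 4 were past 1.5-fold with an interval excluding 0 and 0 were lower by that rule, with a median log2 fold of 0.37. Of all genes, 0.914% met the rule as higher and 0.929% as lower. *Mixl1* was at 0.934 FPKM in KO-NTD, against 0.356 FPKM in KO-N (1.18, interval 0.42 to 1.94). It was below 0.5 FPKM in KO-N and passed the filter only through its KO-NTD value. *Evx1* (0.73), *Nkx1-2* (0.69) and *Tbx6* (0.61), all transcription factor genes, also met the rule. Against the Control column, these 3 differed by 0.27, 0.07 and 0.03 in KO-NTD and by -0.46, -0.61 and -0.57 in KO-N. *Mixl1* differed from it by 0.74 in KO-NTD and by -0.44 in KO-N. The summed level of the list was 67.9 FPKM in KO-NTD, 53.9 FPKM in KO-N embryos and 64.1 FPKM in the Control column.

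Of 10 primordial germ cell genes, 0 met the rule, and the 5 past the filter ran from 0.02 to 0.29. The summed level of the 10 was 33.7 FPKM in KO-NTD, 30.5 FPKM in KO-N embryos and 31.2 FPKM in the Control column. None was at 0 in either KO group. *Ifitm3* and *Kit* gave the largest parts of the sum, at 12.0 and 11.1 FPKM in KO-NTD. *Dppa3*, *Prdm14*, *Nanos3*, *Dazl* and *Ddx4* were under the filter, so the sum mostly follows other genes and is not a level of germ cells. *Dppa3* (Stella), a defining marker, was at 0.373 FPKM in KO-NTD, against 0.326 FPKM in KO-N (0.15, interval -1.02 to 1.31). Of 9 trophoblast genes, 1 met the rule, which 0.914% of all genes met as higher. This was *Plac1*, at 8.94 FPKM in KO-NTD, against 5.07 FPKM in KO-N (0.81, interval 0.24 to 1.38). The spongiotrophoblast marker *Tpbpa* was at 0 in both groups. *Prl3d1* went the other way, at 1.01 FPKM in KO-NTD, against 1.56 FPKM in KO-N (-0.58, interval -1.58 to 0.41). Of the 4 trophoblast genes past the filter, 2 had a positive log2 fold. The sum of the 9 listed genes was 76.4 FPKM in KO-NTD, 57.4 FPKM in KO-N embryos and 59.7 FPKM in the Control column. Most of it came from *Hand1* (51.4 FPKM in KO-NTD, 35.7 FPKM in KO-N) and *Tfap2a* (14.3 FPKM in KO-NTD, 14.5 FPKM in KO-N). Which cells held the mRNA of these genes was not measured, so the sum is not a level of trophoblast cells. The part of germ cells or trophoblast cells in the values of the epiblast genes was not tested.

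Among 22 other genes of the epiblast and pluripotency, 2 met the rule and both were higher in KO-NTD embryos, against 0.914% of all genes as higher. *Tfcp2l1*, a transcription factor gene of naive pluripotent cells that is also expressed in epithelia, was at 1.40 FPKM in KO-NTD, against 0.673 FPKM in KO-N (0.96, interval 0.51 to 1.40). *L1td1*, an RNA-binding protein gene, was at 1.37 FPKM in KO-NTD, against 0.670 FPKM in KO-N (0.93, interval 0.38 to 1.48). The 14 genes past the filter ran from -0.43 (*Sox2*, which is also a neural progenitor gene, interval -0.74 to -0.12) to 0.96, with a median of 0.20. Of 12 genes that increase at later stages, *Myog*, which drives muscle differentiation in somites, was the 1 that met the rule, against 0.929% of all genes as lower. *Myog* was at 0.746 FPKM in KO-NTD (0.461 to 1.03), against 1.82 FPKM in KO-N (1.26 to 2.39). Its log2 fold was -1.19 (-1.82 to -0.55). The 10 past the filter had a median of -0.16.

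**Figure D5:**
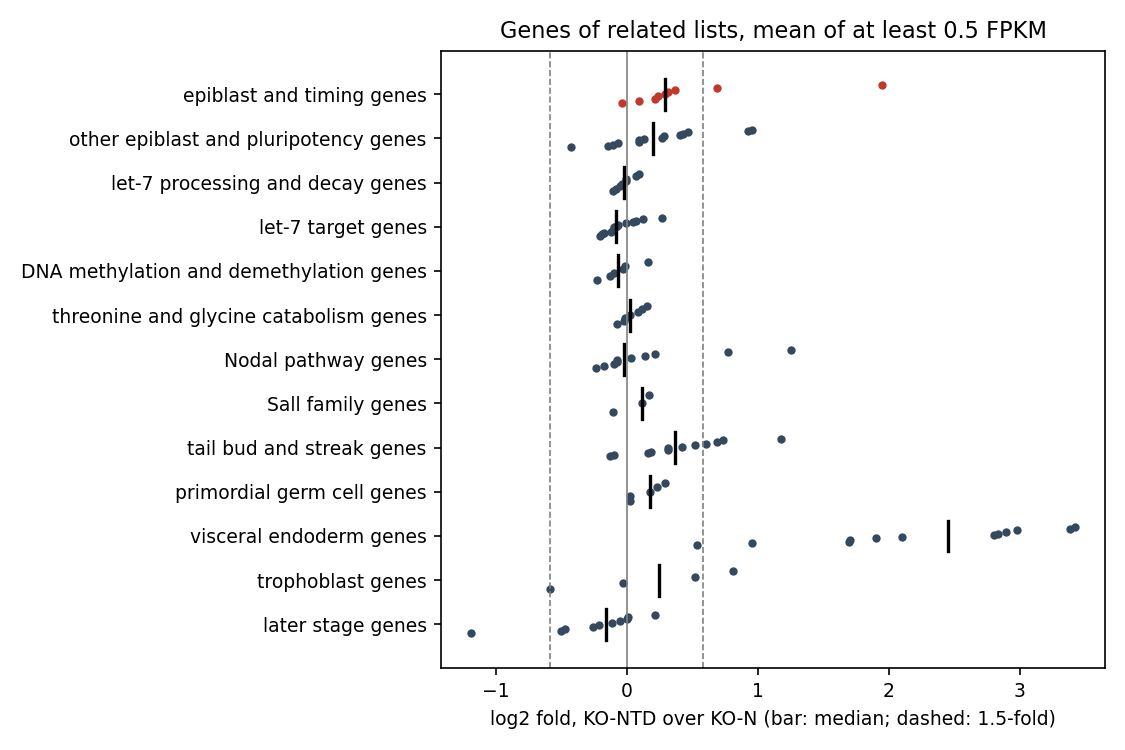
Log2 fold (KO-NTD over KO-N) for single genes (points) of the epiblast and timing genes (red) and of 12 related lists (dark), with the median of each list as a bar, for genes whose mean reached 0.5 FPKM. Dashed lines mark 1.5-fold. Medians run from -0.16 for later stage genes to 2.45 for visceral endoderm genes, with 0.29 for the epiblast and timing genes.

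The Control column lay between the KO groups for most of the 10 genes. For 7 of them, all past the filter, the order was KO-NTD, Control, KO-N from high to low. *Lin28b*, *Sall4* and *Zfp42* were the exceptions, with their highest value in the Control column. Of the 13569 genes past the filter, 1981 (14.6%) had that order. The order requires KO-NTD above KO-N, which 5663 of the 13569 genes had. The count of 7 is thus not independent of the positive folds given above. Which samples the Control column combines is unknown, so no conclusion is drawn from its place between the KO groups. KO-NTD and Control bounds were apart for 1 gene, *Tdh*, and KO-N and Control bounds for 0. Against this column *Tdh* differed by 1.0 on the log2 scale in KO-NTD and by -0.94 in KO-N, and *Tdgf1* by 0.48 and -0.21 in the same groups.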

How the data were processed

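According to the paper and the submitters' processing notes, alignment used TopHat2 0.7 with mm10 as genome, and the authors computed FPKM in Cufflinks 2.2.1 and deposited 1 value for each group. The sources used here do not name the gene annotation. The authors' columns of fold changes, test values, p-values and q-values hold their own comparisons and were not used.

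Of 24357 genes, 27 whose names had become dates were left out, which left 24330. Log2 folds used a pseudocount of 0.1 FPKM, which understates the change of low genes. The distance from a value to its upper bound was read as 2 standard deviations, and intervals are 1.96 standard errors to each side. Intervals are missing for 133 of the 13569 genes kept by the filter (mean of both KO groups 0.5 FPKM or more). The KO-NTD and KO-N values of the table of all genes were identical to those of the comparison table in 779 of 779 matched genes. Folds against WT stay within 1 table. limma could not be applied to 1 value per group.

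The genes and lists were chosen with earlier results of these data known. Named genes are the 10 genes, up to 4 of each list with the largest folds among those past 1.5-fold with an interval excluding 0, the 3 genes nearest to *Tdh*, and *Scarb1*. *Hmga2*, *Gcat*, *Dnmt3a*, *Nodal*, *Lefty1*, *Dppa3*, *Tpbpa*, *Prl3d1*, *Hand1*, *Tfap2a*, *Sox2*, *Cldn6*, *Apoe* and *Hnf4a* were chosen after values were seen. The same holds for *Ifitm3*, *Kit*, *Prdm14*, *Nanos3*, *Dazl*, *Ddx4*, *Arid3a* and *Hmga1*. So were the Y-linked genes, the 5 pairs of related genes and the classes of level (under 2 and from 10 FPKM). Other pseudocounts, filters, scalings and fold limits were tried. Analyses used Python 3.11.15, numpy 2.4.6 and pandas 2.3.3.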

Additional observations from a re-analysis of the deposited data

How the results depend on the processing

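The count of genes past 1.5-fold, 2 as reported, was 1 with a pseudocount of 1 FPKM, under which *Tdgf1* had a log2 fold of 0.41, and 1 with a limit of 2-fold. It was 3 with the lower fold limit tried, which *Utf1* (1.29-fold) also passed, although the interval of its log2 fold (-0.44 to 1.18) includes 0. The shares of all genes past these other settings were not computed, so these counts have no background beside them. The log2 fold of *Tdgf1* in KO-NTD over WT ran from 0.41 (pseudocount 1 FPKM) to 0.73 (no pseudocount). The log2 fold of *Tdh* ran from 1.21 (pseudocount 1 FPKM) to 2.10 (no pseudocount), and its fold of KO-N over WT from -1.18 to -0.60. With other pseudocounts, filters, rescaling to TPM or centring, the median log2 fold of the genes stayed between 0.17 and 0.31, and 1 gene had bounds apart under each filter. No gene of the 10 changed the sign of its fold under any alternative. No paired analysis was possible because the files hold 1 value per group, and for the same reason leaving out single replicates was not run. At 0.5 to 2 FPKM the median interval reached 1.54-fold to each side, which limits what could be seen for *Pou5f1*, *Nanog* and *Utf1*.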
